A study of Mus musculus with 12 samples.

Results

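The 30 genes described here encode enzymes and carriers of mitochondrial and peroxisomal fatty acid oxidation, an enzyme of ketone body metabolism, and further targets of the nuclear receptor PPARA together with the receptor itself. They were chosen by symbol, with earlier results of these data known, and all 30 were found among the 25069 genes of the deposited table. All 30 also had a mean of at least 10 normalized counts over the libraries, the condition for testing, which 14473 genes met. Liver RNA was sequenced from 12 female mice in 3 groups of 4, with 1 library per mouse. In WTMM mice both grandmothers, maternal and paternal, were Khdc3 null. In WTPP mice both grandfathers were. The WT mice came from wild-type ancestors throughout, and every mouse sequenced carried wild-type Khdc3, which is known as a gene of the oocyte. The sources used here do not state the age, strain, diet, feeding state or hour of collection of the mice. The labels name liver as the tissue and hepatocyte as the cell type. Markers of Kupffer, sinusoidal endothelial and stellate cells were read in every group beside those of hepatocytes, so the values are those of liver tissue.

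The liver takes up fatty acids, binds them in the cytosol and either stores them in lipid droplets or burns them. Long chains enter mitochondria as carnitine esters through CPT1A, the carrier SLC25A20 and CPT2, and are shortened there by chain-length-specific acyl-CoA dehydrogenases and the trifunctional protein; peroxisomes shorten very long and dicarboxylic chains, and CYP4A enzymes of the endoplasmic reticulum start oxidation at the far end of the chain. PPARA, a receptor for fatty acids that pairs with RXR, raises most of these transcripts during fasting and under fibrate drugs in rodents.

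Compared with WT livers, 13 of the 30 genes were higher and 0 lower in livers of WTMM mice, with limma and a Benjamini-Hochberg adjusted p of 0.05 as the threshold. Over all genes tested, 4.44% were called higher and 5.94% lower in that comparison. The 13 were Cpt1a, Slc25a20, Acadl, Acadm, Hadhb, Cyp4a31, Cyp4a32, Acot1, Acot3, Acot4, Bdh1, Fabp1 and Cidec. Livers of WTPP mice had higher transcripts of 4 of the 30 than WT livers, against 4.68% of all genes, and lower transcripts of 0, against 5.53%. These 4 were Ehhadh, Acaa1b, Acadm and Acot2. In both comparisons, which share the WT libraries, 28 of the 30 log2 fold changes were positive, beside 50.1% of all genes for WTMM and 48.8% for WTPP. The median log2 fold change of the 30 was 0.50 in WTMM and 0.26 in WTPP, and that of all genes 0.00 and -0.01. In no library left out singly did the median of the 30 fall below 0.42 for WTMM or 0.17 for WTPP, but the counts of called genes moved widely. For WTMM they were 3 without WT 116 or WTMM 9, 5 without WTMM 6, 6 without WT 118 or WTMM 8, and 7 without WT 120. The number called higher over all genes also fell, from 643 to 356 without WT 116, 351 without WTMM 9 and 376 without WTMM 6. It was 366 without WT 118, 456 without WTMM 8 and 571 without WT 120. For WTPP the counts among the 30 were 1 without WT 116, WT 118, WTPP 2 or WTPP 7, and 7 without WTPP 3. Those over all genes were 335, 381, 568, 382 and 593 in that order, against 678 with every library. With WTMM 9 and WT 116 both left out, an alternative added after seeing these counts, 0 of the 30 were called higher in WTMM by limma, with 13 at an unadjusted p under 0.05 and a median log2 fold change of 0.34. Over all genes 185 were then higher and 246 lower in WTMM, against 643 and 859 with every library.

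**Figure D1:**
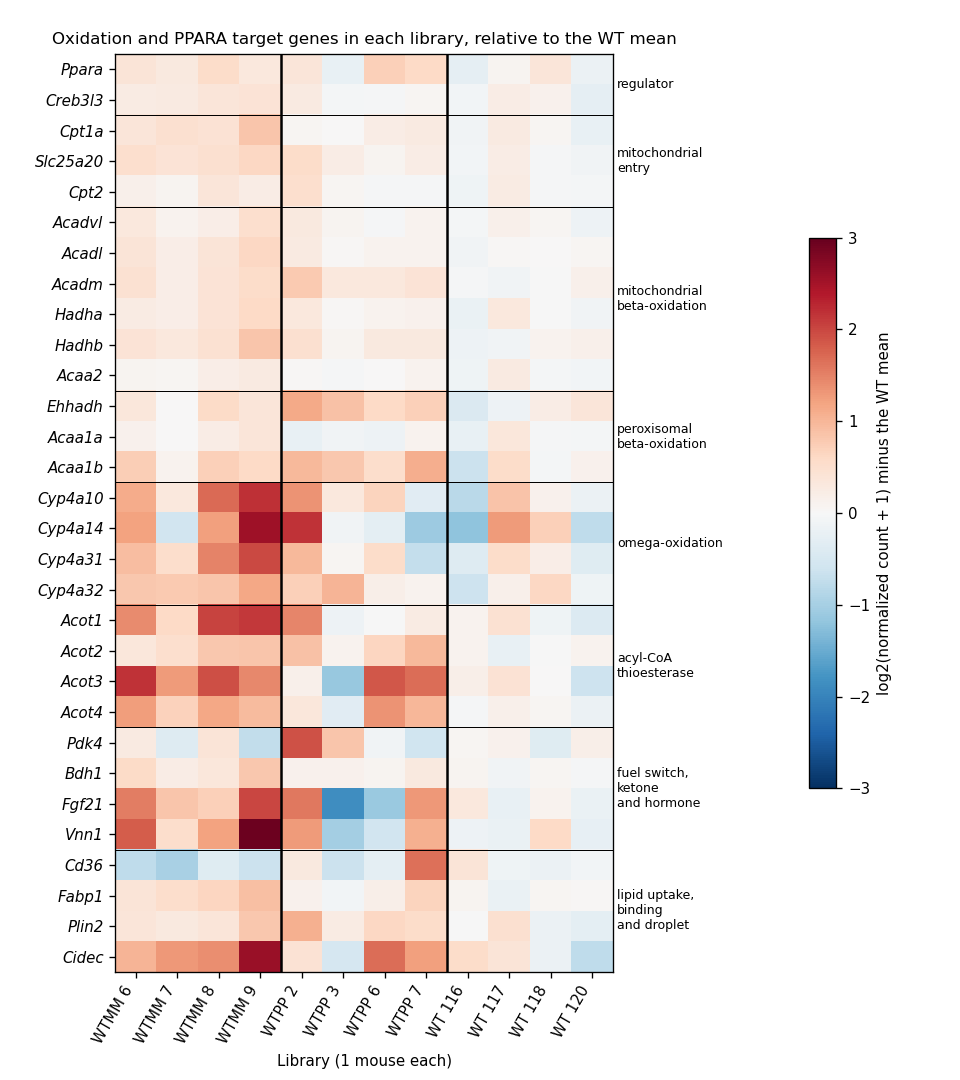
Each row is 1 of the 30 genes and each column 1 mouse; the colour gives log2(normalized count + 1) minus the mean of the 4 WT libraries on the same scale, from blue for lower to red for higher. The WTMM columns are red for most genes, palest in WTMM 7 and strongest in WTMM 9, where Vnn1 stood at 3801 normalized counts.

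Taken as a sum, the 30 genes held 1.3%, 1.15%, 1.38% and 1.64% of all normalized counts in WTMM 6, 7, 8 and 9, 1.21%, 1.0%, 1.11% and 1.37% in WTPP 2, 3, 6 and 7, and 0.93%, 0.95%, 0.96% and 0.97% in WT 116, 117, 118 and 120. Every WTMM and every WTPP library was above every WT library in this sum. Fabp1 made up the largest portion of it; without Fabp1 the sums were 0.62% to 0.91% in WTMM, 0.64% to 0.80% in WTPP and 0.51% to 0.63% in WT, and WTMM 7 then lay below WT 117. Library totals lay between 25070718 and 35843972 reads assigned to genes. Values of single libraries are given below as normalized counts and always in the order WTMM 6, 7, 8, 9, then WTPP 2, 3, 6, 7, then WT 116, 117, 118, 120. Where the order of levels between genes is named, the scale is the normalized count per kilobase of exon: there Fabp1 was highest, at 310957 in WTMM, 240280 in WTPP and 201856 in WT, followed by Acaa2 at 20905, 19157 and 18846. Cidec was lowest in each group on that scale, at 30.6, 17.5 and 9.58.

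Other cell types moved with the contrast against WT. The sum of 12 Kupffer cell markers was 15946 to 20516 normalized counts in WTMM, 16740 to 21453 in WTPP and 22751 to 52021 in WT, with 10 of 12 markers lower in WTMM and 11 of 12 lower in WTPP and no marker at 0. The sum of 12 T and NK cell markers was 183.9 to 213.8 in WTMM, 231.0 to 261.3 in WTPP and 337.5 to 851.1 in WT, with 9 and 4 of the 11 tested lower. That of 8 B cell markers was 264.2 to 410.9 in WTMM, 365.1 to 610.2 in WTPP and 606.3 to 1305 in WT, with 6 and 3 of 8 lower. Of 10 pancreatic acinar markers tested, 8 were lower in each lineage than in WT. Cpb1, Clps, Cel, Pnlip and Try4 had no read in WTMM, and Cpb1, Clps, Ctrb1, Pnliprp1, Try4 and Amy2a5 none in WTPP, while all 12 listed were read in WT. WT 116 held the highest Kupffer, T and NK, B cell and pancreatic sums and was the lowest WT library for 13 of the 30 genes; WT 117 held the lowest of those sums and was the highest WT library for 16. The sum of 10 sinusoidal endothelial markers was 12439 to 13928 in WTMM, 13387 to 13659 in WTPP and 14206 to 16398 in WT, with Cdh5 the 1 marker called, lower in both lineages (adjusted p = 0.00532 in WTMM and 0.0142 in WTPP). That of 8 erythroid markers was 3149 to 8329 in WTMM, 814.8 to 17103 in WTPP and 9878 to 24320 in WT; WTMM did not overlap with WT, and Alas2 was the 1 marker of the 6 tested that was called, lower in WTMM (0.0421). That of 10 stellate cell markers was 12617 to 15039 in WTMM, 16063 to 19020 in WTPP and 13741 to 17333 in WT, with Des lower in WTMM (0.0117). Of 9 hepatocyte markers, Ttpa rose and Cps1 fell in WTMM and Hnf4a fell in WTPP; their sum was 9.89% to 11.1% of all counts in WTMM, 11.7% to 12.9% in WTPP and 10.6% to 15.2% in WT. The part of these cell types in the differences of the 30 genes was not tested, and in bulk tissue fewer cells of a type and less RNA per cell cannot be told apart. Khdc3 itself gave 7 reads over all 12 libraries.

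Among the regulators, Ppara (chromosome 15, 85734983 to 85802819 of GRCm38) had 3996, 3744, 4426 and 3758 normalized counts in WTMM, 3909, 2615, 5000 and 4579 in WTPP, and 2509, 3191, 3930 and 2706 in WT. WT 118 reached into the range of the WTMM libraries and WTPP 3 into that of WT. Its log2 fold change was 0.39 ± 0.18 (SE; adjusted p = 0.184) in WTMM and 0.36 ± 0.18 (adjusted p = 0.214) in WTPP, neither past the threshold. Without WTPP 3 that of WTPP was 0.56 with an adjusted p of 0.0314. Creb3l3, a liver transcription factor released by proteolysis that drives Fgf21 and lipid genes together with PPARA, averaged 10343 ± 587.1 in WTMM, 8587 ± 925.0 in WTPP and 8298 ± 1251 in WT (SD, n = 4 each). Every WTMM library was above every WT library for Creb3l3, with a log2 fold change of 0.33 ± 0.11 that missed the threshold (adjusted p = 0.0754; 0.031 without WT 117). The obligate partner Rxra averaged 10638 ± 1250 in WTMM, 9313 ± 713.9 in WTPP and 11994 ± 1575 in WT, and the coactivator gene Ppargc1a 325.3 ± 42.4, 399.2 ± 74.9 and 344.1 ± 54 (SD, n = 4 each). Neither passed the threshold in any contrast; for Rxra the adjusted p was 0.056 in WTPP.

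PPARA and RXR bind a direct repeat of AGGTCA with 1 base between the copies, called DR1, an element that HNF4A and other receptors also bind. This motif of 13 letters, AGGTCA, then N for any base, then AGGTCA, was searched on both strands, with up to 2 mismatches outside the N, in RefSeq promoter windows of GRCm38.p6 that run from 250 bases before to 50 bases after each start. Of the 30 genes, 25 matched a window by symbol, and 6 of the 25 held a match: Fabp1, Slc25a20, Acot4, Plin2, Creb3l3 and Cd36. Over all 27025 genes with a window, 4.4% held one. Fabp1 matched with 1 mismatch, and 0.554% of all 32851 windows had at most 1; the other 5 genes matched with 2. The sequences of the 3 members that rose in WTMM and hold a match, and of Cd36, which was lower on average in WTMM, are shown 5′ to 3′ on the gene's strand, with the matched bases in capitals; for Slc25a20, whose match lies after the start, only the match with 8 bases on each side is given.
Fabp1 (chr6:71199629-71199878, plus strand): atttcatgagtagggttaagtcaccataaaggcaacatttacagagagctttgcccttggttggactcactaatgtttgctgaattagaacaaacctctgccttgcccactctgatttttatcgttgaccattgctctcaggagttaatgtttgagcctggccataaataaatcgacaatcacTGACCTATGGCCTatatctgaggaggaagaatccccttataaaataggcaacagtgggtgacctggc
Acot4 (chr12:84038129-84038378, plus strand): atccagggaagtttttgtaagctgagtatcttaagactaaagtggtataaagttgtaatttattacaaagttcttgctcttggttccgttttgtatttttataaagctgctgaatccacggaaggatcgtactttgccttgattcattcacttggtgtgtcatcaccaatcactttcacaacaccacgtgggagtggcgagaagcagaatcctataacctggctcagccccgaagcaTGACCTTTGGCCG
Slc25a20 (chr9:108662134-108662162, plus strand): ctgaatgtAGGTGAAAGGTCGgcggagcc
Cd36 (chr5:17835897-17836146, minus strand): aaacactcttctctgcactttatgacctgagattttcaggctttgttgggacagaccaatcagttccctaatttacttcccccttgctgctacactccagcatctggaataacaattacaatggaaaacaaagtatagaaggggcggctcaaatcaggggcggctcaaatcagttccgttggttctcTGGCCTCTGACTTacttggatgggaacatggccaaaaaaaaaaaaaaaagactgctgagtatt
The match lies at positions -67 to -55 of Fabp1, -13 to -1 of Acot4 and -63 to -51 of Cd36, each on the strand opposite to the gene, and on the gene's strand from position 6 of Slc25a20, counted from 0 at the start. A match describes these letters and is not a bound site, and its absence from a window says nothing of elements elsewhere.

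Of the 3 genes of mitochondrial entry, 2 rose in WTMM and 0 were called in WTPP, where 1 had an unadjusted p under 0.05. Over all genes 4.44% rose in WTMM, and 12.5% were higher in WTPP at that unadjusted p. Slc25a20, the carnitine-acylcarnitine carrier of the inner membrane (chromosome 9, 108662088 to 108684641), had 4164, 3886, 4087 and 4462 normalized counts in WTMM, 4312, 3411, 3073 and 3383 in WTPP, and 2765, 3423, 2851 and 2698 in WT. All 4 WTMM libraries were above the highest WT library, WT 117, while among the WTPP libraries only WTPP 2 was. It rose 1.42-fold in WTMM (log2 fold change 0.50 ± 0.11 SE, adjusted p = 0.0115), and this call held with each single library left out but not without WTMM 9 and WT 116 together (0.0891). In WTPP the log2 fold change was 0.27 ± 0.11 (adjusted p = 0.13; 0.0408 without WT 117).

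Cpt1a, which forms acylcarnitines at the outer membrane and limits the rate of entry (chromosome 19, 3322334 to 3385733), had 9676, 10411, 10135 and 13207 in WTMM, 7752, 7496, 8786 and 9021 in WTPP, and 6948, 8977, 7785 and 6418 in WT. The WTMM libraries were above all 8 others. Cpt1a rose 1.44-fold in WTMM against WT (0.53 ± 0.12 on the log2 scale, adjusted p = 0.0171; 0.0515 without WT 116 and 0.113 without WTMM 9 as well). Cpt2, which returns the chain to CoA inside, averaged 4942 ± 407.0 in WTMM, 4723 ± 898.6 in WTPP and 4311 ± 505.1 in WT (SD, n = 4 each) and was not called in any contrast.

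In the mitochondrial spiral, Acadl, the long-chain acyl-CoA dehydrogenase (chromosome 1, 66830839 to 66863277), had 10072, 8865, 10079 and 11937 normalized counts in WTMM, 9264, 7906, 8335 and 8343 in WTPP, and 7198, 7853, 7813 and 8053 in WT. Its WTMM and WT libraries did not overlap, and it rose 1.32-fold in WTMM (log2 fold change 0.40 ± 0.09 SE, adjusted p = 0.0183). The call was lost without WT 116 (adjusted p = 0.0548), without WTMM 9 (0.0514) and with quantile normalization (0.0553). Acadm, the medium-chain enzyme (chromosome 3, 153922357 to 153944632), had 14641, 12327, 14196 and 15707 in WTMM, 18408, 13266, 13227 and 14140 in WTPP, and 10446, 9944, 10631 and 11778 in WT. All 8 libraries of both lineages were above every WT library. Acadm rose 1.33-fold in WTMM (0.41 ± 0.12, adjusted p = 0.04) and 1.37-fold in WTPP (0.45 ± 0.12, adjusted p = 0.0263). Leaving out WT 116, 117 or 118, or WTMM 6, 8 or 9, ended the WTMM call (adjusted p 0.0645 to 0.105), as did 4 other settings (0.0569 to 0.0898). Its WTPP call was lost without WT 116 (0.0688), WT 118 (0.0648), WTPP 2 (0.0524) or WTPP 7 (0.0507), and with only WTPP and WT in the fit (0.0561).

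Hadhb, the thiolase subunit of the trifunctional protein (chromosome 5, 30155248 to 30184593), had 3988, 3693, 4069 and 5303 in WTMM, 4162, 3166, 3655 and 3650 in WTPP, and 2697, 2784, 3198 and 3304 in WT. The 4 WTMM libraries lay above the WT libraries, and Hadhb rose 1.41-fold in WTMM (0.50 ± 0.12 on the log2 scale, adjusted p = 0.0193; 0.0582 without WT 116). Hadha, the other subunit, is read in the opposite direction from a start that neighbours that of Hadhb (chromosome 5, 30118304 to 30155162). Its 11749, 11260, 13192 and 14834 counts in WTMM overlapped with 8647, 12229, 9771 and 9213 in WT through WT 117; WTPP had 12345, 10148, 10603 and 10809. Hadha had a log2 fold change of 0.36 ± 0.12 (adjusted p = 0.0696; 0.0134 without WT 117). Acadvl, the very-long-chain dehydrogenase, averaged 16200 ± 1995 in WTMM, 14267 ± 1354 in WTPP and 13247 ± 1287 in WT, and the thiolase gene Acaa2 31692 ± 2065, 29042 ± 1289 and 28571 ± 3850 (SD, n = 4 each). Neither was called in any contrast. Exons of Acadvl and Hadha overlap those of Dvl2 and Garem2 on the opposite strand.

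**Figure D2:**
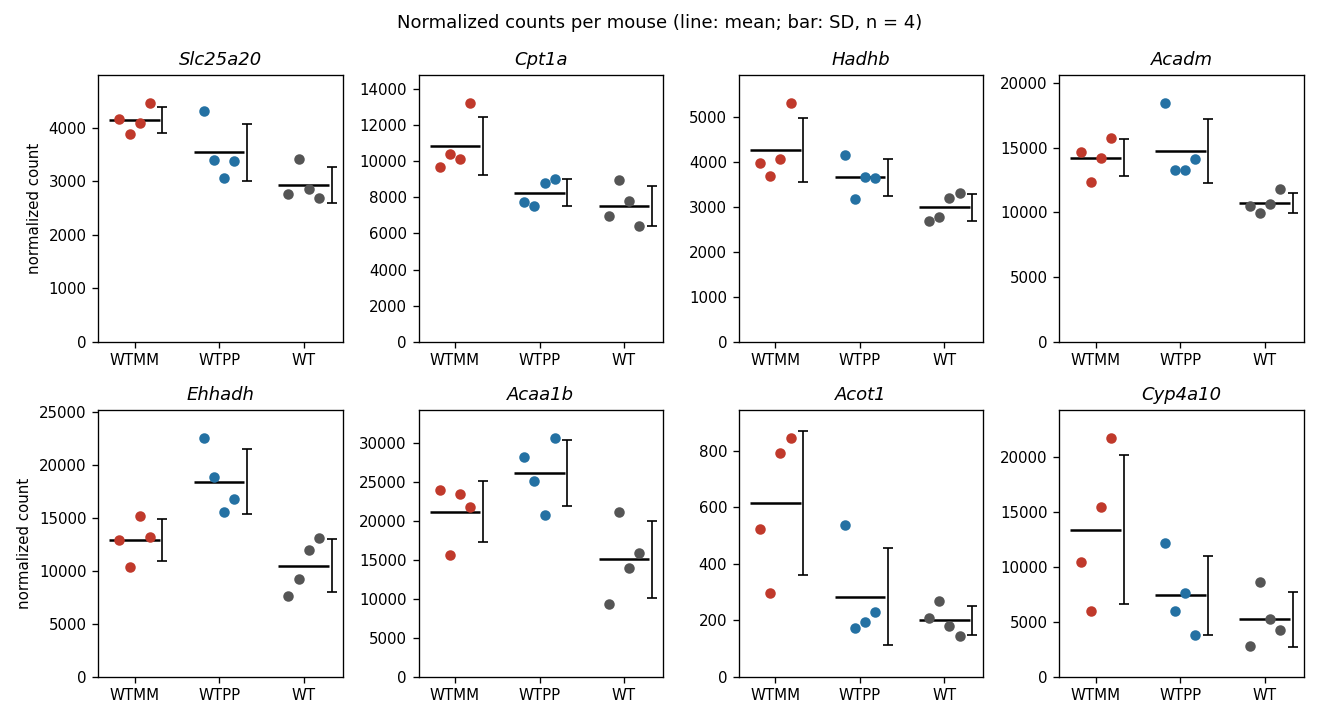
Points are normalized counts of single mice for 8 of the genes, on axes that start at 0, with the group mean as a line and its SD as a bar (n = 4). Cpt1a is above both other groups in all 4 WTMM mice and Ehhadh above both in all 4 WTPP mice, while Acot1 and Cyp4a10 spread most within WTMM.

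Of the 3 peroxisomal genes, 2 rose in WTPP and 0 were called in WTMM, where 1 had an unadjusted p under 0.05. Over all genes 4.68% rose in WTPP, and 13.1% were higher in WTMM at that unadjusted p. Ehhadh, the bifunctional hydratase and dehydrogenase of peroxisomes and a classical PPARA target (chromosome 16, 21761287 to 21787807), had 12875, 10321, 15142 and 13153 in WTMM, 22519, 18899, 15503 and 16745 in WTPP, and 7592, 9246, 12000 and 13086 in WT. The WTPP libraries lay above all 8 others, and the WTMM libraries overlapped with WT. Ehhadh rose 1.78-fold in WTPP against WT (log2 fold change 0.83 ± 0.17 SE, adjusted p = 0.0106), a call that held with each single library left out but not without WTPP 2 and 3 together (0.0583). In WTMM its log2 fold change was 0.32 ± 0.17 (adjusted p = 0.258).

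Acaa1b, a peroxisomal thiolase (chromosome 9, 119148023 to 119157093), had 23945, 15567, 23459 and 21707 in WTMM, 28154, 25065, 20711 and 30579 in WTPP, and 9256, 21095, 13879 and 15854 in WT. WT 117 was above WTPP 6, so the groups overlapped. Acaa1b rose 1.80-fold in WTPP (0.84 ± 0.22, adjusted p = 0.0271); the call was lost without WT 116 (0.0704), WT 118 (0.069), WTPP 2 (0.0548) or WTPP 7 (0.0747), and with only WTPP and WT in the fit (0.0504). In WTMM it was called without WT 117 (0.036). Its near copy Acaa1a had 5847, 5448, 6286 and 6857 in WTMM, 4621, 5031, 4818 and 5809 in WTPP, and 4568, 6783, 5226 and 5148 in WT, with no call in any contrast. Of the stretches of 50 bases in Acaa1b transcripts, 30.5% are shared with Acaa1a, and of those in Acaa1a 12.4% with Acaa1b, so the division of reads between them is uncertain. On the opposite strand exons of Dlec1 overlap Acaa1b, and those of Myd88 overlap Acaa1a.

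The Cyp4a genes, fatty acid omega-hydroxylases that stand side by side on chromosome 4 between 115486200 and 115621602, were higher on average in WTMM and spread widely between mice. Cyp4a10 had 10420, 5971, 15443 and 21711 in WTMM, 12177, 5973, 7617 and 3779 in WTPP, and 2736, 8615, 5270 and 4226 in WT. Cyp4a14 had 3817, 1094, 3841 and 9544 in WTMM, 7424, 1535, 1333 and 775.6 in WTPP, and 706.3, 3955, 2689 and 962.7 in WT. In both genes WTMM 9 was the highest WTMM library, WTPP 2 the highest WTPP library and WT 117 the highest WT library, and the groups overlapped. Neither passed the threshold (Cyp4a10 in WTMM 1.33 ± 0.42 on the log2 scale, adjusted p = 0.0613; Cyp4a14 1.10 ± 0.74, adjusted p = 0.36). The Cyp4a10 call appeared without WT 117, WTMM 7, WTPP 2 or WTPP 7 (0.0316 to 0.0487).

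Cyp4a31 had 129.9, 98.6, 194.5 and 272.1 in WTMM, 134.1, 70.8, 100.9 and 41.1 in WTPP, and 52.2, 100, 78.3 and 53 in WT. Its WTMM 7 lay just below WT 117, and it rose 2.34-fold in WTMM (1.23 ± 0.37, adjusted p = 0.0492). Cyp4a32 had 648.3, 643.3, 666.4 and 834.9 in WTMM, 615.7, 754.9, 417.9 and 399.2 in WTPP, and 239.8, 410.2, 571.1 and 340.1 in WT. Here the WTMM libraries stood above the WT libraries without overlap, and the gene rose 1.86-fold (0.90 ± 0.24, adjusted p = 0.0329). The Cyp4a31 call was lost without WT 116, 118 or 120, WTMM 6, 8 or 9, or WTPP 3 or 6 (0.0539 to 0.132) and with 4 other settings (0.0503 to 0.0746). That of Cyp4a32 was lost without WT 116, WT 120 or any single WTMM library (0.0581 to 0.0894) and without a mean-variance trend (0.0575). Of the 50-base stretches of Cyp4a32, 43.8% occur in another of the 4 transcripts, against 29.8% in Cyp4a10, 19.0% in Cyp4a31 and 0.0% in Cyp4a14, so reads may be split among the first 3.

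The acyl-CoA thioesterase genes Acot1 to Acot4, whose enzymes release fatty acids from CoA in the cytosol (ACOT1), mitochondria (ACOT2) and peroxisomes (ACOT3 and ACOT4), lie in 1 cluster on chromosome 12 from 83987861 to 84060402. All 4 had every WTMM library above every WT library, and 3 were called higher in WTMM, beside 9.29% and 4.44% of all genes. Acot1 had 522.9, 296.6, 791.5 and 843.8 in WTMM, 536.3, 173.5, 194.0 and 229.3 in WTPP, and 207.9, 266.8, 177.5 and 145.1 in WT. Its WTMM 7 was the nearest to WT, and WTPP 2 stood above the other WTPP libraries. Acot1 rose 2.91-fold in WTMM (1.54 ± 0.36, adjusted p = 0.0187); the call was lost without WT 118 (0.0501) or WTMM 9 (0.056).

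Acot2 had 123.2, 138.2, 172.9 and 175.5 in WTMM, 179.4, 104.4, 154.1 and 192.8 in WTPP, and 105.9, 83.9, 97.1 and 105.3 in WT. Only WTPP 3 of both lineages lay within the WT range. It rose 1.57-fold in WTPP (0.65 ± 0.19, adjusted p = 0.043) and had a log2 fold change of 0.62 ± 0.19 in WTMM, whose adjusted p of 0.0504 lay next to the threshold. Leaving out any WT library, or WTPP 2, 6 or 7, or WTMM 7 or 8, ended the WTPP call (0.0527 to 0.119), as did 5 other settings (0.0533 to 0.0751). The WTMM value passed without WTPP 3 (0.0217) or WTPP 7 (0.0451) and with 4 other settings (0.0235 to 0.0492). Acot2 shares 27.6% of its 50-base stretches with the other 3, Acot1 17.2%, Acot3 6.0% and Acot4 2.8%.

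Acot3 had 6457, 3493, 5504 and 3881 in WTMM, 1604, 648.7, 5189 and 4600 in WTPP, and 1630, 1945, 1436 and 924.4 in WT. Acot4 had 7472, 5042, 6951 and 5976 in WTMM, 3904, 2456, 7971 and 6206 in WTPP, and 3039, 3434, 3236 and 2767 in WT. For both genes WTPP 6 and WTPP 7 reached the WTMM values, and WTPP 3 lay below every WT library. In WTMM Acot3 rose 3.27-fold (1.71 ± 0.51, adjusted p = 0.0494) and Acot4 2.02-fold (1.02 ± 0.27, adjusted p = 0.031). Leaving out any WT or WTMM library or WTPP 2 ended the Acot3 call (0.0524 to 0.119), as did 7 other settings (0.0508 to 0.106). The Acot4 call was lost without WT 116, 118 or 120 or WTMM 6, 8 or 9 (0.0618 to 0.082) and with 2 other settings (0.0545 and 0.057). Without WTPP 3, Acot4 passed in WTPP (0.89 on the log2 scale, adjusted p = 0.0189). Exons of both genes overlap those of a gene on the opposite strand, 4732463B04Rik, and of Gm49366 on the same strand, and the sources used here do not state whether counting used strand.

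The split within WTPP was shared by the clock genes Arntl and Dbp, which were looked at after the Acot3 and Acot4 values were seen. How many of the 18 core clock genes shared it was not counted. Arntl, the positive limb of the circadian clock, had 933.3, 540.7, 38.8 and 32 in WTPP 2, 3, 6 and 7, against 52.2 to 119.4 in WTMM and 102.3 to 174.8 in WT. Dbp, a clock output factor that peaks opposite to Arntl, had 140.3, 1316, 4930 and 6545 in the same WTPP libraries, 3667 to 4649 in WTMM and 2074 to 3400 in WT. WTPP 2 and WTPP 3 therefore lay on 1 side of all WTMM and WT libraries for both clock genes and WTPP 6 and WTPP 7 on the other. Per1, called in both lineages (1.84 ± 0.36 on the log2 scale, adjusted p = 0.00741 in WTMM; 1.28 ± 0.36, adjusted p = 0.0375 in WTPP), had 1057 to 1581 in WTMM, 318.7 to 1662 in WTPP and 313.0 to 379.1 in WT. Of 18 core clock genes, it was the only one called in either comparison with WT. WTPP 6 also held skeletal muscle transcripts, with 293.7 normalized counts of Acta1 and 191.8 of Ckm, against at most 2.06 and 2.24 in any other library. Pdk4, the kinase that turns glucose oxidation down in favour of fat, ran against Acot3 in WTPP, with 546.6, 260.2, 135.2 and 95.9, and averaged 141.7 ± 50.9 in WTMM and 147.3 ± 23 in WT (SD, n = 4 each). Either pair of WTPP libraries was also left out, in alternatives added after seeing these values; since the split was seen in Acot3, Acot4 and Pdk4, no test of those genes is read from them. Without WTPP 2 and 3 the log2 fold changes in WTPP were 0.65 for Ehhadh (adjusted p = 0.0583), 0.36 for Acadm (0.0702), 0.81 for Acaa1b (0.085) and 0.81 for Acot2 (0.0177). Without WTPP 6 and 7 they were 1.01 for Ehhadh (0.0184), 0.55 for Acadm (0.0491), 0.88 for Acaa1b (0.0829) and 0.48 for Acot2 (0.269). All 8 values were positive, from 2 WTPP libraries each. The genes were taken because they were called higher with every WTPP library in the fit, so these signs carry no further support. The part of clock phase and of muscle tissue in these values was not tested.

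**Figure D3:**
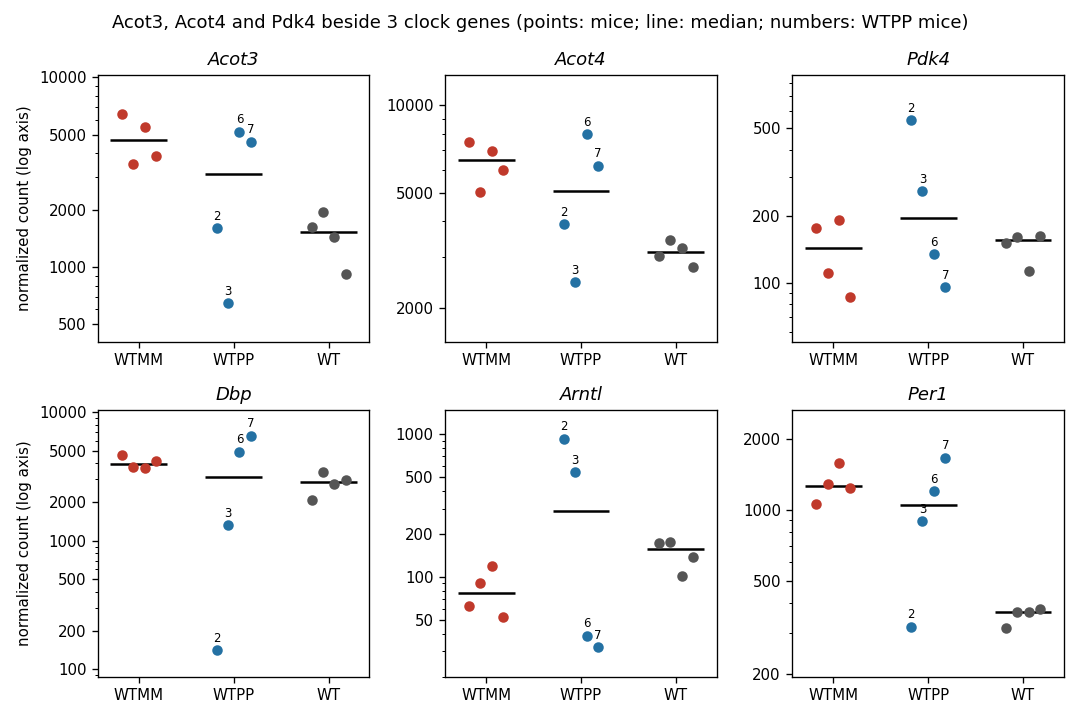
Normalized counts per mouse on log axes for Acot3, Acot4 and Pdk4 (top) and the clock genes Dbp, Arntl and Per1 (bottom), with the group median as a line and WTPP mice marked by number. Within WTPP, mice 6 and 7 are higher than mice 2 and 3 for Acot3, Acot4 and Dbp and lower for Pdk4 and Arntl.

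Among the genes of ketone bodies, hormones and signalling, Bdh1, which converts acetoacetate and beta-hydroxybutyrate into each other (chromosome 16, 31422280 to 31458901), had 16469, 12911, 14079 and 19593 in WTMM, 12261, 12190, 11896 and 13746 in WTPP, and 11874, 10437, 11535 and 10808 in WT. Every library of both lineages was above every WT library, WTPP 6 by a narrow margin. Bdh1 rose 1.40-fold in WTMM (0.48 ± 0.12, adjusted p = 0.0212) and had a log2 fold change of 0.17 ± 0.12 in WTPP (adjusted p = 0.395). The WTMM call was lost without WTMM 6 (0.0587), without WTMM 9 (0.0516) and with quantile normalization (0.0627). Exons of Gm15743 overlap Bdh1 on the opposite strand.

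Fgf21, a fasting hormone of the liver (chromosome 7, 45613886 to 45615490), had 47, 28.2, 26.2 and 65.1 normalized counts in WTMM, 48.5, 3.54, 6.65 and 39.3 in WTPP, and 19.5, 13.1, 16.7 and 13.3 in WT. All WTMM libraries were above WT, while WTPP 3 and WTPP 6 were below WT and WTPP 2 and WTPP 7 above. With log2 fold changes of 1.28 ± 0.64 in WTMM (adjusted p = 0.214) and -0.02 ± 0.64 in WTPP (adjusted p = 0.988), Fgf21 was not called; with only WTMM and WT in the fit its adjusted p was 0.0275. Vnn1, a pantetheinase strongly responsive to PPARA, averaged 1845 ± 1370 in WTMM, 701.6 ± 486.9 in WTPP and 508.7 ± 161.1 in WT (SD, n = 4 each), and its log2 fold change of 1.62 ± 0.53 in WTMM missed the threshold (adjusted p = 0.0672). It passed without WTMM 7 (0.0485) or WTPP 3 (0.0499) and with only WTMM and WT in the fit (0.0291).

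For uptake, binding and storage, Fabp1, the abundant fatty acid binding protein of the liver cytosol (chromosome 6, 71199827 to 71205023), had 146115, 160608, 173902 and 207211 in WTMM, 122246, 105054, 126600 and 177601 in WTPP, and 117916, 97410, 116584 and 114595 in WT. The WTMM libraries did not overlap with WT, and WTPP 3 lay within the WT range. Fabp1, whose promoter is printed above, rose 1.53-fold in WTMM (0.62 ± 0.18, adjusted p = 0.0401). Leaving out any WT or WTMM library or WTPP 6 ended the call (0.05 to 0.104), as did fitting without a filter on low values (0.117) and quantile normalization (0.07). Cidec, a lipid droplet fusion protein (chromosome 6, 113424634 to 113435760), had 34.7, 42.2, 45.5 and 104.5 in WTMM, 22.7, 11.5, 55.4 and 40.2 in WTPP, and 24.9, 22.2, 14.6 and 9.36 in WT. WTMM 9 stood highest, and no WTMM library overlapped with WT. Cidec rose 2.97-fold in WTMM (1.57 ± 0.47, adjusted p = 0.0478); the call was lost without any single WT or WTMM library or without WTPP 2 or 7 (0.0505 to 0.131) and with 3 other settings (0.0555 to 0.0693).

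Plin2, the main coat protein of hepatic lipid droplets, averaged 9561 ± 1667 in WTMM, 10832 ± 2681 in WTPP and 7033 ± 1757 in WT (SD, n = 4 each). Its log2 fold change was 0.62 ± 0.19 in WTPP, with an adjusted p of 0.0511, and 0.46 ± 0.19 in WTMM (adjusted p = 0.132). Without WT 117 it passed in both (0.0131 in WTPP and 0.0379 in WTMM), and in WTPP also without WTPP 3 (0.0297) or WTMM 9 (0.0472). Cd36, a fatty acid translocase that adipocytes and macrophages also express, had with Pdk4 a negative log2 fold change in WTMM. Its normalized counts were 584.5, 503.4, 764.2 and 631.8 in WTMM, 1206, 631.0, 802.5 and 3126 in WTPP, and 1297, 907.4, 878.1 and 928.3 in WT. Every WTMM library was below every WT library, and WTPP 7 was above all others. The log2 fold change in WTMM was -0.69 ± 0.36 (adjusted p = 0.238), and it passed without WTPP 7 (0.0386) and with only WTMM and WT in the fit (0.0171).

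**Figure D4:**
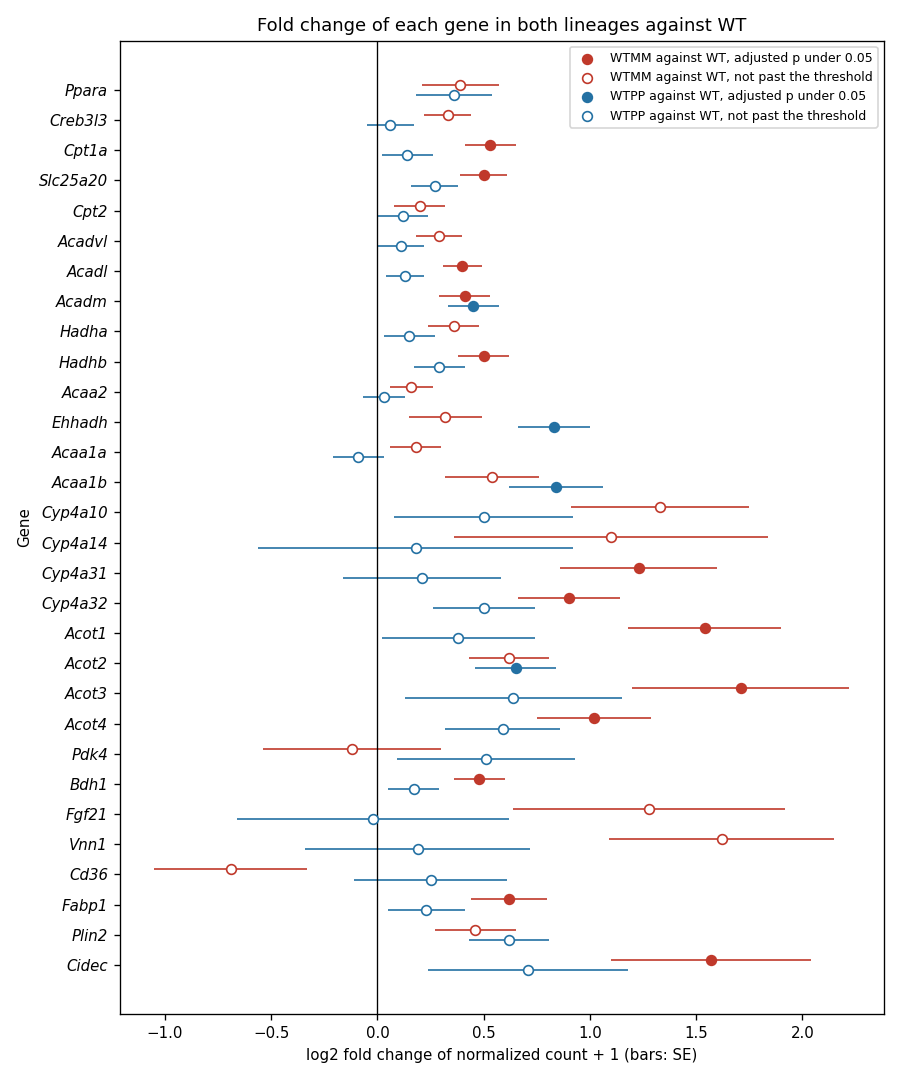
Log2 fold changes of each of the 30 genes with SE for WTMM against WT (red, upper of each pair) and WTPP against WT (blue, lower), on the log2(normalized count + 1) scale; filled points passed an adjusted p of 0.05. The 13 filled red and 4 filled blue points all lie right of 0, and the widest bars belong to Cyp4a14 and Fgf21.

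Without regard to the threshold, 15 of the 30 genes had every WTMM library above every WT library, and 1, Cd36, had every one below; the shares over all genes were 9.29% and 9.55%. Between WTPP and WT the counts were 3 and 0, against 7.33% and 7.81%. An unadjusted p under 0.05 was met by 21 genes in the higher and 0 in the lower direction for WTMM, where 13.1% and 14.2% of all genes met it. For WTPP the counts were 8 and 0, against 12.5% and 14.1%. With limma's voom on the recovered reads, 10 were called higher in WTMM and 3 in WTPP, and 0 lower in either. Over all genes voom called 622 higher and 799 lower in WTMM, and 668 and 811 in WTPP.

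Set directly against each other, WTMM and WTPP livers differed in 0 of the 30 genes at an adjusted p of 0.05 by limma, with 2.29% of all genes called higher and 1.88% lower in WTMM. With voom the count was also 0. At an unadjusted p under 0.05, 10 of the 30 were higher and 2 lower in WTMM, against 9.36% and 9.21% of all genes, and 23 log2 fold changes were positive, against 49.9%. The median was 0.27, and -0.00 over all genes. Cpt1a alone of the 30 had all WTMM libraries above all WTPP libraries, as 6.94% of all genes did (0.39 ± 0.12 on the log2 scale, adjusted p = 0.101), and Ehhadh alone had all below, as 6.23% did (-0.52 ± 0.17, adjusted p = 0.12). Acot1 had a log2 fold change of 1.16 ± 0.36 (adjusted p = 0.0986), which passed without WTMM 7 (0.0425) or WTPP 2 (0.0199). Calls present in 1 comparison with WT and missing in the other, such as those of Cpt1a and Ehhadh, were thus not shown to differ between the lineages.

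Some of the 30 genes also varied together from mouse to mouse inside the groups. WTMM 9 was the highest WTMM library for 22 of the 30 and WTMM 7 the lowest for 23, while WTPP 2 was highest for 17 of its group and WTPP 3 lowest for 17. Deviations from the group means were taken for each gene over the 12 libraries. Of the 435 pairs among the 30 genes, 15.4% had a Pearson r over 0.7 and 0 under -0.7, beside 2.45% and 2.31% of all pairs of tested genes. The median r of the 435 pairs was 0.34, and some pairs ran opposite, such as Pdk4 with Fabp1 (r = -0.63). All pairs share the same 12 libraries, with their depth and tissue make-up. The closest pairs were Acot3 with Acot4 (r = 0.97), Cyp4a10 with Cyp4a31 (0.96), Cyp4a10 with Cyp4a14 (0.94) and Acadl with Hadhb (0.92), and the first 3 are neighbours in their clusters that may share reads, except that Cyp4a14 shares no 50-base stretch. The within-group SD on the log2 scale was 0.12 for Acadl and Acaa2 and 1.29 for Cyp4a14, the 16.2, 17.1 and 99.5 percentiles of all genes tested. Fgf21 (1.06), Vnn1 (0.92) and Acot3 (0.89) followed Cyp4a14.

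Genes of the same pathways outside the 30 were listed beside them. For every list below, the shares of all genes against WT were 4.44% higher and 5.94% lower in WTMM, and 4.68% and 5.53% in WTPP. Between the lineages 2.29% of all genes were higher and 1.88% lower in WTMM. Of 25 genes listed as other mitochondrial oxidation genes, 11 rose and 0 fell in WTMM and 7 rose and 0 fell in WTPP. The median log2 fold changes were 0.28 and 0.27. Where in the cell the products of the listed genes act was not tested. Eci2, an isomerase for unsaturated chains, averaged 8487 ± 705.8 in WTMM, 5817 ± 760.3 in WTPP and 5293 ± 158.0 in WT (SD, n = 4 each). It rose 1.6-fold in WTMM against WT (adjusted p = 0.00142) and was higher in WTMM than in WTPP (log2 fold change 0.55 ± 0.10, adjusted p = 0.00701). Slc22a5, the carnitine importer, rose 1.70-fold in WTMM (adjusted p = 0.00614), and Acad11, a further acyl-CoA dehydrogenase, 1.35-fold (0.00996). In WTPP Hadh, the short-chain hydroxyacyl-CoA dehydrogenase, rose 1.40-fold (0.00652), Slc25a42, the mitochondrial CoA carrier, 1.48-fold (0.0188), and Acad10 1.61-fold (0.0178). Acad10 was 1.89-fold lower in WTMM than in WTPP (adjusted p = 0.00735), and Acsm1, a medium-chain acyl-CoA synthetase, 1.26-fold higher (0.0472).

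Of 23 other peroxisomal oxidation genes, 11 rose and 0 fell in WTMM and 9 rose and 0 fell in WTPP, with medians of 0.35 and 0.30. Decr2, the peroxisomal dienoyl-CoA reductase, rose 1.5-fold in WTMM (adjusted p = 0.00223) and 1.3-fold in WTPP (0.0175). Acot12, a cytosolic acetyl-CoA thioesterase placed in this list, rose 1.44-fold in WTMM (0.00533) and 1.39-fold in WTPP (0.00901). Abcd2, a peroxisomal importer of very long chains, rose 1.74-fold in WTMM (0.00546) and 1.6-fold in WTPP (0.0119), and its relative Abcd3 1.40-fold in WTPP (0.0115). Pex11a, which promotes peroxisome division, was the list's 1 gene called between the lineages, at 3221 ± 346.2 in WTMM and 2175 ± 460.5 in WTPP (SD, n = 4 each; 1.5-fold higher, adjusted p = 0.0332).

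Of 35 other PPARA target genes tested, 8 rose and 2 fell in WTMM and 5 rose and 2 fell in WTPP. The median log2 fold changes were 0.14 and 0.02. Mfsd2a, a lysophospholipid transporter, had 1846, 3462, 3440 and 4295 in WTMM, 1431, 2120, 1875 and 2070 in WTPP, and 1155, 1066, 987.7 and 894.0 in WT, with no overlap between either lineage and WT. It rose 3.05-fold in WTMM (adjusted p = 0.000836) and 1.81-fold in WTPP (0.0209). Angptl4, an inhibitor of lipoprotein lipase, had 2891, 3125, 3466 and 2772 in WTMM, 2821, 1730, 1535 and 2552 in WTPP, and 1604, 1707, 1151 and 990.8 in WT, and rose 2.30-fold in WTMM (0.00406). The mitochondrial carrier Ucp2, which macrophages also express, was 1.68-fold lower in WTMM (0.00385) and 1.83-fold lower in WTPP (0.00183). In WTPP the lipoprotein receptor Vldlr was 4.65-fold lower (0.00531) and Cyp4a12a, a male-predominant omega-hydroxylase, 5.84-fold higher, at a mean of 43.3 normalized counts against 4.89 in WT (0.0164); in WTMM Cyp4a12a was 6.28-fold higher (0.0138). Between the lineages Fabp2, a fatty acid binding protein typical of the intestine, was 2.01-fold higher in WTMM (0.00698), the monoglyceride lipase gene Mgll 1.52-fold (0.015) and Fitm2, a lipid droplet factor, 1.47-fold (0.0379).

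Of 7 ketone body genes, 2 rose and 1 fell in WTMM, and 0 rose and 1 fell in WTPP. The acetoacetyl-CoA thiolase gene Acat1 rose 1.67-fold in WTMM (adjusted p = 0.036), and Oxct1, the ketone-using enzyme that hepatocytes lack, was 1.68-fold lower in WTMM (0.0272) and 1.58-fold lower in WTPP (0.0461). Of 22 partners and coregulators of PPARA, 0 were called in WTMM by limma, with 0 higher and 2 lower at an unadjusted p under 0.05; in WTPP Pparg rose 2.53-fold (0.0215), and Hnf4a (1.31-fold, 0.0222) and Nr1h3 (1.30-fold, 0.0463) were lower.

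Of 25 fasting-induced genes outside lipid oxidation, 7 rose and 1 fell in WTMM and 6 rose and 0 fell in WTPP. Pck1, the gluconeogenic carboxykinase, rose 2.16-fold in WTMM (adjusted p = 0.000729) and 1.38-fold in WTPP (0.0498). Pck1 was 1.57-fold higher in WTMM than in WTPP (0.0218), and Fkbp5, a glucocorticoid target, 2.14-fold (0.0344). The transcription factor gene Cebpb rose 3.06-fold in WTMM (0.00122) and 2.29-fold in WTPP (0.00614). Igfbp1, an insulin-repressed binding protein, rose 5.13-fold in WTMM (0.0267) and 16-fold in WTPP (0.00231). Of 18 fed-state lipogenic genes, 2 rose and 3 fell in WTMM, 4 rose and 0 fell in WTPP, and 5 were lower in WTMM than in WTPP. Me1, the malic enzyme, rose in both lineages (1.55-fold in WTMM, 0.0182; 1.91-fold in WTPP, 0.00289), as did the carbohydrate-responsive factor Mlxipl (1.40-fold, 0.0234; 1.49-fold, 0.0115). Elovl5, a fatty acid elongase, rose 1.57-fold in WTPP (0.0107). Mid1ip1, an activator of acetyl-CoA carboxylase, was 1.71-fold lower in WTMM than in WT (0.0205) and 1.70-fold lower than in WTPP (0.035). Acss2, which makes acetyl-CoA in the cytosol, was 2.29-fold lower (0.0177) and the glycerol acyltransferase gene Gpam 1.70-fold lower (0.0206) in WTMM than in WTPP. The part of feeding state was not tested.

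**Figure D5:**
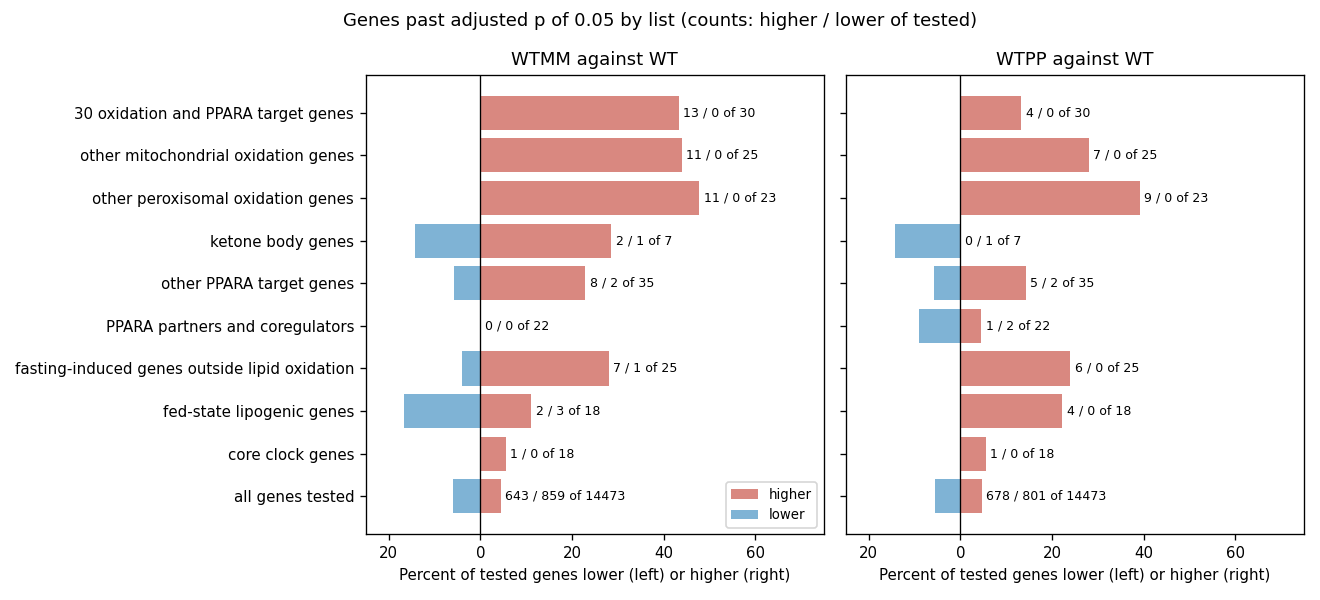
Bars give the percent of tested genes in each list called higher (right) or lower (left) at an adjusted p of 0.05 in WTMM against WT (left panel) and WTPP against WT (right panel), with the counts beside them and all 14473 tested genes at the bottom. The oxidation lists stand to the right of the bar for all genes, with 11 of 25 and 11 of 23 genes higher in WTMM and 7 and 9 in WTPP. Other lists do so too. Of 25 fasting-induced genes outside lipid oxidation, 7 were higher in WTMM and 6 in WTPP, and of 18 fed-state lipogenic genes 2 and 4. PPARA partners and coregulators do not, with 0 of 22 in WTMM and 1 in WTPP.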

How the data were processed

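Per the submitters' processing notes, the tools were cutadapt, HISAT2 and DESeq2 and the genome GRCm38; the sources used here do not state versions, roles, the gene counter or its use of strand. Library preparation was directional per the labels' protocols. The deposited table gives log2(normalized count + 0.1) for 25069 genes. In each deposited column the low values are multiples of 1 step, and dividing by it gave whole reads within 0.01 for 100% of values; these recovered counts served voom and the library totals.

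The test was limma 3.58.1 (R 4.3.3) with a trend, on log2(normalized count + 1) of 14473 genes with a mean of at least 10, 3 group means in 1 fit, and Benjamini-Hochberg adjustment across them; an adjusted p comes from this fit unless another setting or left-out library is named beside it, and then from limma or voom refitted so. The procedure was also run on simulated counts drawn independently for each gene, without the variation shared between genes seen here. Its outcome is not reported here, and no result above rests on it. Folds are on that scale, which understates changes of low genes. The 30 genes and the lists were chosen with earlier results of these data known. Of each list at most 3 called genes per contrast, by smallest p, were named, plus Rxra, Ppargc1a and Khdc3, and some genes this rule names are not reported here; Arntl, Dbp, Acta1, Ckm and Cyp4a12a in WTMM were chosen after their values were seen. Alternatives changed the pseudocount, filter, scaling, model and libraries. Gene coordinates are GENCODE M21 (25016 IDs matched). Across genes, libraries of a group correlated at r of 0.975 to 0.990. WT library numbers stand apart and no batch is labelled, so a batch that followed them and the contrasts with WT cannot be told apart.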

Additional observations from a re-analysis of the deposited data

Results flagged for a closer look

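Of the 90 sets of 4 values (30 genes in 3 groups), 5 held a library whose gap to the nearest other, over the range, was above Dixon's critical value for 4 values; chance flags about 1 in 20 sets. WTMM 9 was high for Cyp4a32, with 834.9 normalized counts where the rest of WTMM had 643.3 to 666.4, and for Plin2, at 12048 against 8487 to 8895. In WT, WT 118 was high for Vnn1, at 749.7 against 412.7 to 443.1, and WT 116 for Cd36, at 1297 against 878.1 to 928.3. WT 117 was low for Fabp1, at 97410 against 114595 to 117916.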

How the results depend on the processing

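With each library left out in turn, the number of the 30 genes called higher in WTMM than in WT ran from 3 to 14, lower from 0 to 1 (Cd36), higher in WTPP than in WT from 1 to 7, and higher in WTMM than in WTPP from 0 to 1 (Acot1). Over all genes these numbers ran from 345 to 733, 475 to 1070, 335 to 860 and 144 to 445. Against 13 as reported, 8 were higher in WTMM with no filter on low values and 7 without a mean-variance trend. Over all genes 495 were higher with no filter and 508 without the trend, against 643. With only the 2 groups compared 1 of the 30, Cd36, was lower in WTMM and 1 was higher in WTPP, beside 912 and 394 of all genes. The cause of these shifts was not tested. The following sets of libraries were chosen after seeing the data. Without WTPP 2 and 3, 1 gene was higher in WTMM than in WTPP; without WTPP 6 and 7, 2 were higher (Acot3, Acot4) and 1 lower (Pdk4), and 1 was lower in WTMM than in WT; the split was seen in these 3 genes, so their calls carry no support. Without WTMM 9 and WT 116, chosen because each moved the WTMM count most, 0 were higher in WTMM than in WT by limma (13 at an unadjusted p under 0.05) and 1 in WTPP. Pseudocounts, a mean of at least 50, quantile and total scaling, voom and the robust fit kept the counts within 1.5 times. No called value changed sign under any alternative; 48 of 1808 uncalled values did. With the replicate block (numbers 6 and 7 shared by WTMM and WTPP) 0 of the 30 were called and 258 genes were higher and 197 lower, against 331 and 272; deviations of same-numbered libraries correlated at -0.15 and -0.07 across genes, so the numbers were not taken to pair the mice. Depth limits Fgf21 and Cidec most, which had the fewest normalized counts.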
